A study of Mus musculus with 6 samples.

Results

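VE-PTP, the TIE receptors and the angiopoietins are encoded in the mouse by 5 genes: *Ptprb* (VE-PTP), *Tek* (TIE2), *Tie1*, *Angpt1* and *Angpt2*. They were chosen by name, as a phosphatase, the TIE receptors and the angiopoietins, with earlier results of these data known. All 5 had a row among the 24080 genes of the table. RNA was sequenced from 3 libraries labelled VEC-positive and 3 labelled VEC-null. VEC-null cells are a mouse endothelial line that was derived from embryonic stem cells homozygous for a null mutation of the gene of VE-cadherin (VEC), and VEC-positive cells are the same line after a retrovirus had carried wild-type VEC into it. Both groups therefore carry the null mutation, and they differ by label in the transferred copy. The sources used here do not say whether either line is 1 clone or which promoter drives the transferred VEC. The comparison is between a line and its reconstituted derivative, so its p-values measure the spread between these libraries and do not separate VEC from other differences between the lines.

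VE-PTP is a receptor-type tyrosine phosphatase of endothelial cells that binds VE-cadherin and removes phosphate from TIE2. TIE2 is the receptor tyrosine kinase of the angiopoietins, and TIE1 is a related receptor that associates with it and tunes its signal. Angiopoietin-1 activates TIE2 and is made mainly by mural and other perivascular cells, while angiopoietin-2, which endothelial cells store in Weibel-Palade bodies, activates or antagonizes TIE2 depending on context. Active TIE2 signals through the kinase AKT, which keeps FOXO transcription factors out of the nucleus.

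*Cdh5*, the gene of VE-cadherin, ran against the labels. It had 794, 739 and 750 normalized counts in the libraries labelled VEC-positive, against 1334, 1439 and 1689 in those labelled VEC-null, which limma gave as a log2 fold change of -0.96 with a standard error of 0.098 (adjusted p = 0.000182). Counts per gene cannot tell transferred from endogenous transcript, and from *Cdh5* alone an exchange of labels cannot be told from other differences. Every direction below is given by label. The deposited values are normalized counts, meaning reads per gene divided by 1 size factor per library, and the recovered reads summed to 9598590 to 14136376 in VEC-positive and to 6036155 to 11670273 in VEC-null libraries. Transcripts of the mitochondrial genome took 17.97% to 24.18% of the reads in VEC-positive and 9.62% to 14.9% in VEC-null libraries, and VEC-null 3 stood apart from the other VEC-null libraries. Of 14 endothelial marker genes, all tested, 9 rose, 2 fell and 3 missed the threshold, and their summed level was 72956 to 74215 in VEC-positive and 49643 to 51846 in VEC-null libraries, so the endothelial label holds by these markers in both. Genes were tested with limma on log2(normalized count + 1), with adjustment over 14032 genes and a threshold of 0.05, and 37.3% of the tested genes passed, 20.9% as higher in VEC-positive and 16.4% as lower.

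RefSeq promoter windows were given for *Tek* and *Tie1*, 2 of the 5 genes. That of *Tek*, the angiopoietin receptor itself, is shown because none of its bases lies in an annotated exon, while 212 of the 250 bases of *Tie1* do. The *Tie1* window, not shown, held 7 matches of the ETS core and 2 of CACCC described below. It covers the 250 bases before the start of *Tek* on the plus strand, at chr4:94739039-94739288 in the GRCm38.p6 build, 5′ to 3′. Capitals mark matches on either strand of CACCC, which Krüppel-like factors bind, of TTCC or its complement GGAA, the core of ETS sites, and of ACAAAG, a TCF/LEF sequence.
Tek upstream region: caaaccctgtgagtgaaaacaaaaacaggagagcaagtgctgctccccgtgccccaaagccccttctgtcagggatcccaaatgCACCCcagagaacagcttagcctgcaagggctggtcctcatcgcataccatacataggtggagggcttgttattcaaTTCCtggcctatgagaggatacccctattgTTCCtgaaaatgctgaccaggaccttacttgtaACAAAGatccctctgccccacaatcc
The window held 1 match of CACCC, at position -166 from the start, 2 of the ETS core, at -89 and -59, and 1 of ACAAAG, at -26. None of these matches overlapped another. Of 27018 promoter windows of the same length, 51.3% held CACCC, 93.4% the ETS core and 16.5% ACAAAG. No match was found in these letters for the GATA sequence GATAAG, for the second TCF/LEF sequence searched, TCAAAG, or for the FOXO sequence GTAAACA. A match is a description of letters and not a measured binding site.

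*Ptprb* was higher in VEC-positive cells, with the largest fold change of the 3 abundant members. The gene (ENSMUSG00000020154) lies on chromosome 10 of mm10 from 116275523 to 116389535. It had 21170, 20957 and 22559 normalized counts in VEC-positive 1, 2 and 3, against 5846, 5447 and 6243 in VEC-null 1, 2 and 3. The lowest VEC-positive library was far above the highest VEC-null library, and the libraries of each group lay close together. The means were 21562 ± 870 and 5846 ± 398 (SD, n = 3 each), a log2 fold change of 1.88 with a standard error of 0.087 and a 95% interval of 1.68 to 2.08, which is 3.69-fold (adjusted p = 3.08e-06 from limma). The value rests on 67619 reads in VEC-positive and 17780 in VEC-null, a ratio of 3.72 (95% counting interval 3.65 to 3.78). The study singled out *Ptprb* on these libraries, so its rise is not independent evidence. Among all tested genes *Ptprb* ranked 389 by log2 fold change. Among 174 genes with a mean of at least 5000, a limit chosen after the values were seen, 79 were higher and 32 at least 2-fold higher, and *Ptprb* had the second largest log2 fold change, after *Calcrl*, a receptor subunit for adrenomedullin and CGRP, with 2.39.

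Both TIE receptor genes were higher in VEC-positive cells, each by less than *Ptprb*. *Tek* (ENSMUSG00000006386, chromosome 4 from 94739289 to 94874976) had 9733, 9657 and 9399 normalized counts in VEC-positive libraries, against 6221, 6005 and 6574 in VEC-null libraries. *Tie1* (ENSMUSG00000033191, chromosome 4 from 118471191 to 118490061) had 5665, 5557 and 5971 in VEC-positive libraries, against 3926, 3985 and 4020 in VEC-null libraries. For both genes every VEC-positive library was above every VEC-null library, as was so for 27.2% of the tested genes, while the groups did not overlap in either direction for 50% of them. The means of *Tek* were 9596 ± 175 in VEC-positive and 6267 ± 287 in VEC-null cells (SD, n = 3 each), which is 1.53-fold and 0.62 on the log2 scale (95% interval 0.44 to 0.79, standard error 0.074, limma adjusted p = 0.00043). Those of *Tie1* were 5731 ± 214 and 3977 ± 47.3 (SD, n = 3 each), which is 1.44-fold and 0.53 on the log2 scale (95% interval 0.37 to 0.68, standard error 0.068, limma adjusted p = 0.000621). With equal totals per library the median of all tested genes was -0.32, where the deposited scaling gave -0.012, and this brought *Tek* to 0.30 (adjusted p = 0.0126) and *Tie1* to 0.22 (adjusted p = 0.0444). Relative to that median, *Tek* was at 0.62 to 0.63 and *Tie1* at 0.54 with the deposited scaling and with equal totals.

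The angiopoietin genes had few reads, and *Angpt1* alone of this pair passed the test. *Angpt1* (ENSMUSG00000022309, chromosome 15 from 42424723 to 42676977) had 15.2, 23.4 and 20.2 normalized counts in VEC-positive libraries, against 3.06, 0 and 0 in VEC-null libraries. These were 13, 24 and 25 reads, against 2, 0 and 0. *Angpt1* was thus detected in each VEC-positive library and in VEC-null 1 only, where the 0 reads of VEC-null 2 and 3 allow up to 2.36 and 2.66 normalized counts. The summed reads were 62 and 2, 30.3 times as many in VEC-positive (95% counting interval 8.04 to 256). The means were 19.6 ± 4.14 in VEC-positive and 1.02 ± 1.77 in VEC-null cells (SD, n = 3 each). The fitted log2 fold change, 3.67 with a standard error of 0.65 (limma adjusted p = 0.00299), depends on the pseudocount, with 4.36 at a pseudocount of 0.5 and 2.05 at 5, and is no bound. *Angpt1* passed the filter of at least 10 normalized counts in at least 3 libraries through its VEC-positive values, and so had to differ. Its exons share 737 bases with an antisense gene, *Gm17473*, which was not analysed here, and the sources used here do not say whether strand was used in counting, so reads of the 2 genes cannot be told apart.

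*Angpt2* (ENSMUSG00000031465, chromosome 8 from 18690263 to 18741562) had 24.5, 29.2 and 26.6 normalized counts in VEC-positive libraries, against 49.0, 19.7 and 23.9 in VEC-null libraries. The groups overlapped, and VEC-null 1 alone was above all VEC-positive libraries. There were 84 reads in each group, and the means were 26.8 ± 2.37 and 30.9 ± 15.8 (SD, n = 3 each). The fitted log2 fold change was -0.09 with a standard error of 0.35 (limma adjusted p = 0.86) and had a 95% interval of -0.90 to 0.72, which holds both 0 and the value of *Tek*. The ratio of the summed reads was 0.98 with a counting interval of 0.71 to 1.34. That interval covers counting error only and leaves out the spread between libraries, so the 2 widths are not compared. Without VEC-null 1 the value was 0.29, and it did not pass there. *Angpt2* lies within *Mcph1*, a gene of the opposite strand with which it shares no exon base. *Mcph1*, which encodes microcephalin, was lower in VEC-positive, with 81.5 ± 5.07 against 176 ± 26.1 normalized counts (SD, n = 3 each) and a log2 fold change of -1.09 (adjusted p = 0.000932 from limma).

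**Figure D1:**
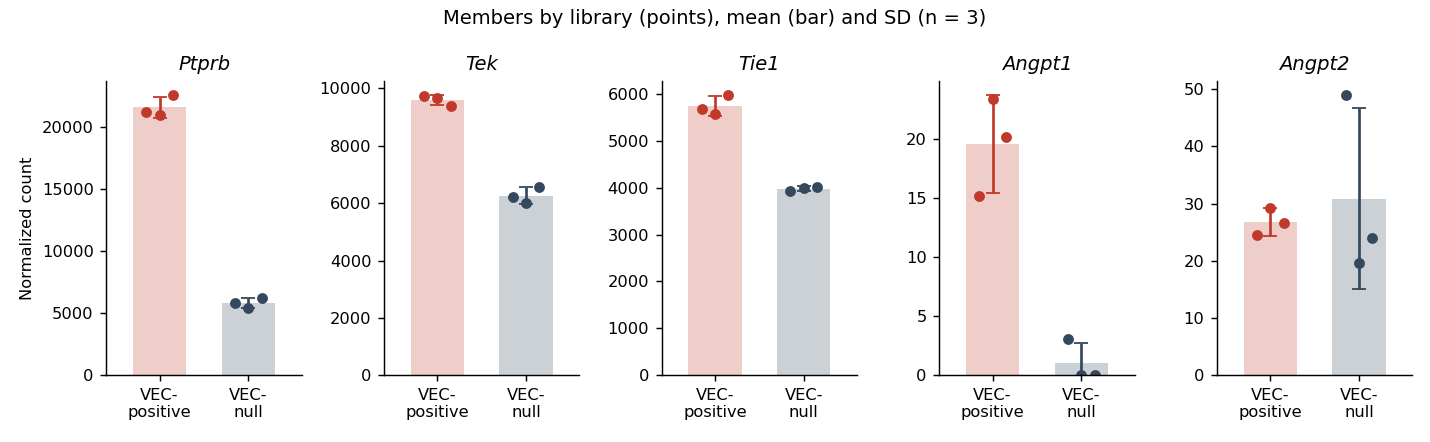
Normalized counts of the 5 genes in each library (points), with the group mean (bar from 0) and SD (n = 3); each panel has its own axis, with VEC-positive left and VEC-null right. *Ptprb*, *Tek* and *Tie1* do not overlap between the groups, as was so in either direction for 50% of the tested genes. *Angpt1* does not overlap either, but it passed the filter through its VEC-positive values and so had to differ. *Angpt2* overlaps, with VEC-null 1 at 49.0 as the highest library.

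**Figure D2:**
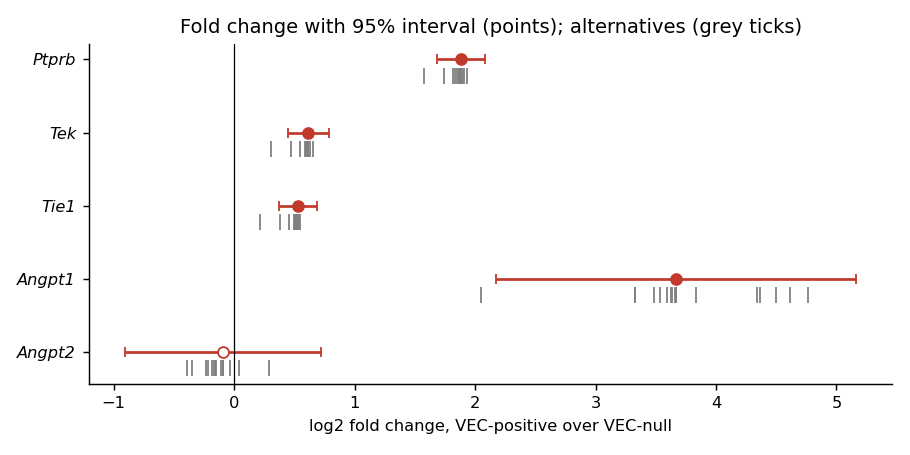
Log2 fold changes of VEC-positive over VEC-null for the 5 genes with their 95% intervals, filled where the adjusted p was under 0.05, and the values under other processing as grey ticks. *Ptprb*, at 1.88, lies to the right of *Tek* and *Tie1* with no overlap of the intervals, and the interval of *Angpt2* includes 0. *Angpt1* has a wide interval of 2.18 to 5.16. It passed the filter through its VEC-positive values and so had to differ.

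Markers of mural cells, which express *Angpt1* in vessels, were low in both groups and are given beside it for that reason. Of 10 mural markers 9 had a row and 5 were tested, of which 2 were higher and 1 was lower. Of all tested genes 20.9% were higher and 16.4% lower. The summed level of the mural markers was 161 to 195 normalized counts in VEC-positive and 121 to 129 in VEC-null libraries. *Pdgfrb*, the platelet-derived growth factor receptor of pericytes, had 105 ± 11.4 normalized counts in VEC-positive and 1.10 ± 0.96 in VEC-null cells (SD, n = 3 each), from 330 and 3 reads, a ratio of 107 (95% counting interval 36.5 to 524). *Abcc9*, the gene of a potassium channel subunit of pericytes, went the other way, with 4.98 ± 4.08 against 79.6 ± 15.2 normalized counts (SD, n = 3 each), from 17 and 248 reads (log2 fold change -3.94, adjusted p = 0.000366 from limma). Both, and the other higher marker *Notch3*, passed the filter through the group where they were high. *Kcnj8*, a potassium channel gene of pericytes, had 0 reads in the VEC-positive libraries and was near 0 in the others. The part of mural cells in the *Angpt1* values was not tested, and in bulk RNA a larger number of cells that express a gene and more RNA per cell cannot be told apart. Of 4 lymphatic endothelial markers, 3 were tested and 2 were lower, with a summed level of 1951 to 2276 in VEC-positive and 2853 to 3060 in VEC-null libraries. The haematopoietic markers summed to 75.01 to 107 in VEC-positive and 23.0 to 44.3 in VEC-null libraries. Most of this was *Itga2b*, an integrin gene of platelets and early blood cells and the one marker tested, which was higher with 87.1 ± 13.4 against 29.0 ± 12.9 normalized counts (SD, n = 3 each, log2 fold change 1.64, adjusted p = 0.00544 from limma), with the defining genes *Spi1* and *Gata1* at 0 in VEC-positive and near 0 in VEC-null libraries. None of the pluripotency markers was tested, and those with a row summed to 0.97 to 12.9 in VEC-positive and 3.15 to 9.18 in VEC-null libraries.

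Per kb of exon, which allows a rough comparison of levels between genes, the order of the members changed between the groups. The length used was that of all annotated exons of a gene, merged, and not that of the expressed transcript. The order between genes depends on this length. The levels in VEC-positive cells were 2037 ± 37.2 normalized counts per kb for *Tek*, 1617 ± 65.2 for *Ptprb* and 1166 ± 43.6 for *Tie1* (SD, n = 3). In VEC-null cells they were 1330 ± 60.9 for *Tek*, 809 ± 9.62 for *Tie1* and 438 ± 29.9 for *Ptprb* (SD, n = 3). *Ptprb* was thus between the receptors in every VEC-positive library and below both in every VEC-null library. Among 13969 tested genes with a length, *Ptprb* ranked 203 in VEC-positive and 826 in VEC-null cells, *Tek* 144 and 235, and *Tie1* 278 and 422. The ligands ranked far lower, *Angpt2* at 12099 and 11971 and *Angpt1* at 13041 and 13927. *Angpt2* and *Angpt1* were at 7.26 ± 0.64 and 3.76 ± 0.80 normalized counts per kb in VEC-positive cells (SD, n = 3). In VEC-null cells *Angpt2* was at 8.36 ± 4.29 per kb (SD, n = 3), and *Angpt2* was above *Angpt1* in all 6 libraries.

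**Figure D3:**
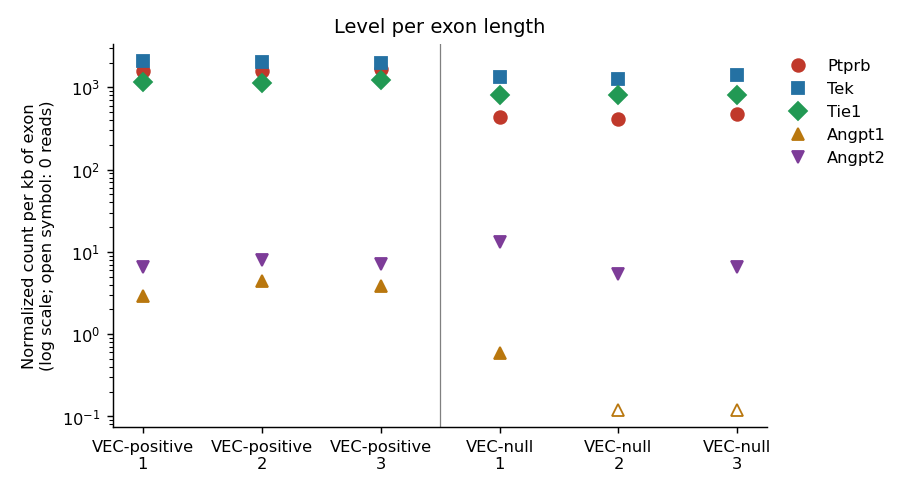
Normalized counts per kb of exon in each library on a log axis, one symbol per gene, with VEC-positive libraries left; the open triangles are libraries with 0 *Angpt1* reads, drawn at the foot of the axis and not at a measured level. *Tek* is on top throughout, *Ptprb* lies above *Tie1* in VEC-positive and below it in VEC-null libraries, and both ligands lie far below the receptors.

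Ratios of 2 genes within a library were taken with 1 added to both normalized counts. For abundant genes such a ratio hardly depends on the size factor of the library. *Ptprb* over *Tek* was 2.17, 2.17 and 2.40 in VEC-positive libraries, against 0.940, 0.907 and 0.950 in VEC-null libraries, a difference of 1.27 on the log2 scale. *Ptprb* over *Kdr*, the VEGF receptor VEGFR2, was 1.09, 1.15 and 1.20 in VEC-positive libraries, against 0.453, 0.443 and 0.493 in VEC-null libraries, a difference of 1.31. *Ptprb* over *Cdh5* was 26.6, 28.3 and 30.1 in VEC-positive libraries, against 4.38, 3.78 and 3.69 in VEC-null libraries, a difference of 2.84. The log2 fold change of *Cdh5* itself, -0.96, is part of this difference. By label, VEC-null *Cdh5* counts come from a gene with the null mutation, and VEC-positive counts may mix endogenous and transferred transcript. The *Ptprb* to *Cdh5* ratio is thus no measure of phosphatase against cadherin protein. In these 3 ratios the groups did not overlap, and the exact permutation test gave p = 0.1 for each, the smallest p that 3 against 3 libraries allow (two-sided, 0.125 after adjustment over 5 ratios). *Tek* over *Tie1* was 1.72, 1.74 and 1.57 in VEC-positive libraries, against 1.58, 1.51 and 1.64 in VEC-null libraries. The receptors thus kept overlapping ratios, with a difference of 0.09 on the log2 scale (exact permutation p = 0.3, adjusted 0.3). *Angpt2* over *Angpt1*, with 1 added to both, was 1.58, 1.24 and 1.30 in VEC-positive libraries, against 12.3, 20.7 and 24.9 in VEC-null libraries. The difference of -3.76 (exact permutation p = 0.1, adjusted 0.125) rests on the few *Angpt1* reads. With a pseudocount of 0.5 it was -4.45, and with 5 it was -2.14. *Angpt1* had 0 reads in VEC-null 2 and 3, where the ratio is that of *Angpt2* to the pseudocount and so depends on the size factor. Since *Angpt1* passed the filter through its VEC-positive values, the p-value of this ratio is no support for a difference.

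**Figure D4:**
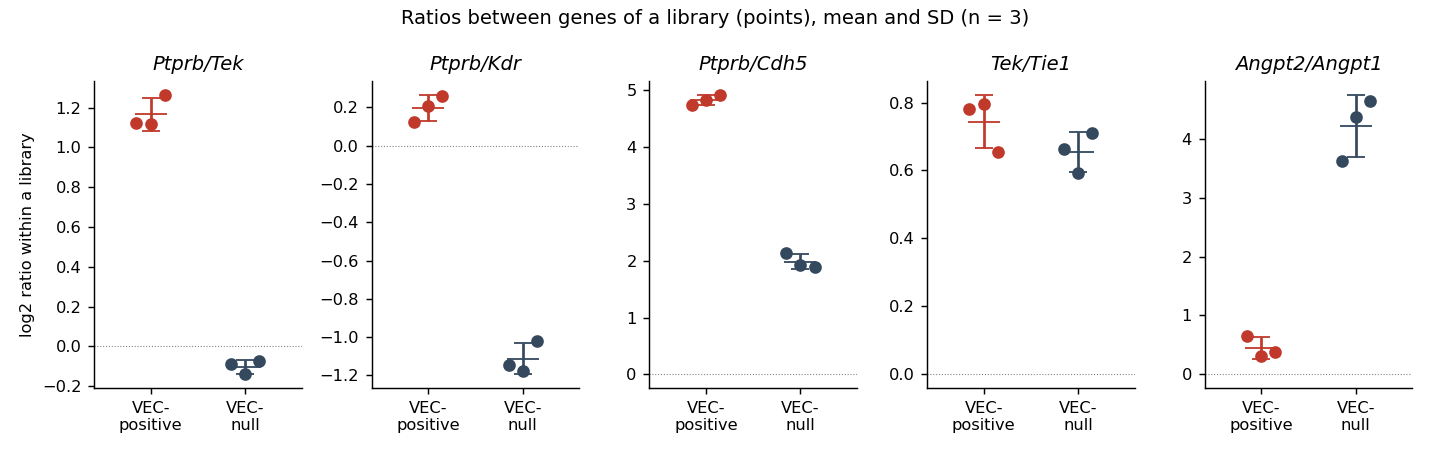
Log2 ratios between genes within a library (points), with the mean and SD (n = 3), VEC-positive left of VEC-null in each panel; the axes differ between panels. The groups are apart in the 3 *Ptprb* ratios and in *Angpt2*/*Angpt1*, and they overlap in *Tek*/*Tie1*. *Angpt1* passed the filter through its VEC-positive values, so the gap in *Angpt2*/*Angpt1* is no separate evidence.

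The genes whose pattern over the 6 libraries was nearest to that of each member were found by Euclidean distance between log2 values centred on each gene's mean, among 7789 named genes with a mean of at least 100. Nearest to *Ptprb* were *Heg1*, a transmembrane receptor of endothelium, at a distance of 0.13, *Clic5*, a chloride intracellular channel gene, at 0.14, and *Rapgef4*, which encodes the cAMP sensor EPAC2, at 0.15. Their log2 fold changes were 1.92, 1.96 and 1.87. Nearest to *Tek* were *Sqstm1* (the autophagy receptor p62), *Ptk2* (focal adhesion kinase) and *Jun*, at 0.065, 0.078 and 0.082, and among those nearest to *Tie1* were *Cdr2l* and *Drap1*, at 0.060 and 0.073. The closest to *Angpt1* was *Slco2a1*, a prostaglandin transporter gene, at 1.13, and that of *Angpt2* was at 0.46. *Angpt1* and *Angpt2* have means of 10.3 and 28.8 over the 6 libraries, below the limit of 100 for candidates. No gene of like depth could therefore be chosen for them, and their larger distances say nothing of their patterns.

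All 5 listed substrates and partners of VE-PTP were tested, of which 4 were higher and 1, *Cdh5*, was lower. Of all tested genes 20.9% were higher and 16.4% lower. The median log2 fold change of the list was 0.33, where that of all genes was -0.012. *Kdr* had 18814 ± 643 normalized counts in VEC-positive and 12627 ± 310 in VEC-null cells (SD, n = 3 each), a log2 fold change of 0.57 (adjusted p = 0.00102 from limma). *Fgd5*, a guanine nucleotide exchange factor of endothelial cells, had 4527 ± 251 and 3084 ± 165 normalized counts (SD, n = 3 each), a log2 fold change of 0.55 (adjusted p = 0.000926 from limma). Both values lie within the 95% interval of *Tek*, 0.44 to 0.79. *Ephb4*, a receptor of ephrin-B2, was at 0.33 (adjusted p = 0.0142) and *Jup*, the gene of plakoglobin, named after its values were seen, at 0.20 (adjusted p = 0.0488). With equal totals, where the median of all tested genes was -0.32, the list had 2 higher and 1 lower. The calls of *Ephb4* and *Jup* were lost there, at 0.01 and -0.12. That of *Jup* was lost in 15 of 19 alternatives, including without any 1 library other than VEC-null 3, and that of *Ephb4* in 5, including without VEC-positive 1 or 3 (0.33 and 0.30, adjusted p = 0.0527 and 0.0608 from limma).

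Of 17 genes of adaptors and kinases that act behind TIE2, 16 were tested, 7 rising, 2 falling and 7 not passing, with a median of 0.22. Over all tested genes, 20.9% rose and 16.4% fell. The AKT genes *Akt2* and *Akt1* moved in opposite directions. *Akt2* was higher in VEC-positive, with 254 ± 8.23 against 137 ± 6.55 normalized counts (SD, n = 3 each, log2 fold change 0.88), and *Akt1* was lower, with 871 ± 17.2 against 1258 ± 32.5 (SD, n = 3 each, log2 fold change -0.53). *Nck1*, an adaptor, was higher by 0.93, and *Pak1*, the kinase that it links to receptors, was lower, with 67.5 ± 9.94 against 255 ± 36.9 normalized counts (SD, n = 3 each, log2 fold change -1.90). *Dok2*, an adaptor that binds active TIE2 and was named after its values were seen, had 53.6 ± 9.13 against 3.20 ± 1.21 normalized counts (SD, n = 3 each), from 165 and 9 reads, a ratio of 17.9 (95% counting interval 9.21 to 39.9). It passed the filter through its VEC-positive values alone and so had to differ. With equal totals 4 genes of this list were higher and 4 lower.

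Among 7 other ligands and receptors of the angiopoietin system, mostly integrin subunits, 5 were tested. Here 2 were higher and 3 did not pass, with a median of 0.11, where 20.9% of all tested genes were higher and 16.4% lower. *Itgav* had 1755 ± 93.9 normalized counts in VEC-positive and 1133 ± 227 in VEC-null cells (SD, n = 3 each, log2 fold change 0.65), a call lost with equal totals (0.34, adjusted p = 0.0604). *Itgb5*, named after its values were seen, had 68.9 ± 12.3 against 6.72 ± 0.81 normalized counts (SD, n = 3 each, log2 fold change 3.17), and it too passed the filter through its VEC-positive values alone. *Itgb1*, an integrin beta subunit gene, was at 0.04 and did not pass.

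Of 6 genes listed for the shedding of TIE receptors from the cell surface, all were tested. Of these 3 rose, 1 fell and 2 did not pass, with a median of 0.36, where 20.9% of all tested genes rose and 16.4% fell. *Timp3*, an inhibitor of metalloproteinases, had 35949 ± 172 normalized counts in VEC-positive and 10900 ± 851 in VEC-null cells (SD, n = 3 each), a log2 fold change of 1.72. *Mmp14*, a membrane metalloproteinase, was lower, with 1885 ± 98.9 against 3078 ± 256 (SD, n = 3 each, log2 fold change -0.70). *Adam10*, a membrane protease, was higher by 0.59. The other riser of the list was *Rhbdf1*, at 0.46 (adjusted p = 0.0338 from limma), while *Rhbdf2* was at -0.07 and did not pass. *Adam17* was at 0.26 (adjusted p = 0.0914), and without VEC-null 3 at 0.37 (adjusted p = 0.00267 from limma). The inhibitor and the proteases thus did not move one way.

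Of 4 FOXO factor genes, 3 were tested and 1, *Foxo1*, was higher, with 803 ± 34.8 normalized counts in VEC-positive and 539 ± 109 in VEC-null cells (SD, n = 3 each, log2 fold change 0.59, adjusted p = 0.0103 from limma); with equal totals it was at 0.28 (adjusted p = 0.106). *Foxo3* was at 0.14 and did not pass. Of 14 genes listed as FOXO targets, 11 were tested, 3 rising, 5 falling and 3 not passing, with a median of 0.01. The shares over all tested genes were 20.9% rising and 16.4% falling. *Gadd45a*, a growth arrest gene, was lower with a log2 fold change of -1.20 and *Sesn3*, a sestrin gene, with -1.08. *Txnip*, the gene of a thioredoxin inhibitor, was higher with 0.97, and *Bcl6*, a repressor gene, with 0.73, a call lost with equal totals (0.43, adjusted p = 0.0683 from limma) and without VEC-positive 3 (0.65, adjusted p = 0.0502). The listed targets therefore did not move one way either.

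Of 14 transcription factor genes known from TIE and angiopoietin promoters, all were tested, 6 rising, 3 falling and 5 not passing, with a median of 0.34. Across all tested genes 20.9% rose and 16.4% fell. *Klf2*, a Krüppel-like factor of endothelium, had 882 ± 95.4 normalized counts in VEC-positive and 308 ± 60.7 in VEC-null cells (SD, n = 3 each, log2 fold change 1.53). *Epas1*, which encodes HIF-2α, had 6742 ± 318 and 3343 ± 92.0 (SD, n = 3 each, log2 fold change 1.01). The ETS genes differed among themselves, with *Elf1* higher by 0.77 and *Erg* by 0.70, and *Fli1* at -0.14 without passing. *Fli1* passed as lower with equal totals (-0.45, adjusted p = 0.00591 from limma), with equal totals without mitochondrial transcripts (-0.29, adjusted p = 0.0348) and without VEC-null 3 (-0.22, adjusted p = 0.0219). *Foxc1* was lower, with 80.2 ± 4.86 against 160.3 ± 26.6 normalized counts (SD, n = 3 each, log2 fold change -0.98). *Hif1a* was at 0.43 (adjusted p = 0.0519) and ranged from 0.12 to 0.61 over 19 alternatives. It passed without VEC-null 3 (0.61, adjusted p = 0.000117 from limma), with the stricter filter (adjusted p = 0.0464) and in DESeq2 (adjusted p = 0.0183). With equal totals 5 of the list were higher and 6 lower.

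Of 10 genes of Weibel-Palade bodies, the store of angiopoietin-2, 8 were tested, 5 rising, 1 falling and 2 not passing, with a median of 0.67. For all tested genes the shares were 20.9% rising and 16.4% falling. *Vwf*, the main cargo and also a gene that the study singled out on these libraries, had 1746 ± 80.3 normalized counts in VEC-positive and 401 ± 13.5 in VEC-null cells (SD, n = 3 each, log2 fold change 2.12), while *Angpt2* did not pass. *Rab3d*, a secretion gene, was higher by 0.76 on the log2 scale, and *Sytl4*, the gene of granuphilin, was lower, with 15.6 ± 3.38 against 195 ± 28.6 normalized counts (SD, n = 3 each, log2 fold change -3.57).

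Of the other receptor phosphatases of the R3 class to which VE-PTP belongs, 2 of 4 had a row and *Ptprj* alone was tested. *Ptprj*, also called DEP-1, had 307, 312 and 311 normalized counts in VEC-positive libraries, against 19.9, 38.6 and 74.5 in VEC-null libraries. The groups were far apart though the VEC-null libraries varied, and limma gave a difference of 2.97 on the log2 scale with a standard error of 0.40 (adjusted p = 0.000735). Of 7 angiopoietin-like genes 3 had a row and *Angptl2*, named after its values were seen, was tested, with 61.5 ± 3.56 against 24.3 ± 3.09 normalized counts (SD, n = 3 each, log2 fold change 1.31, adjusted p = 0.00157 from limma).

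**Figure D5:**
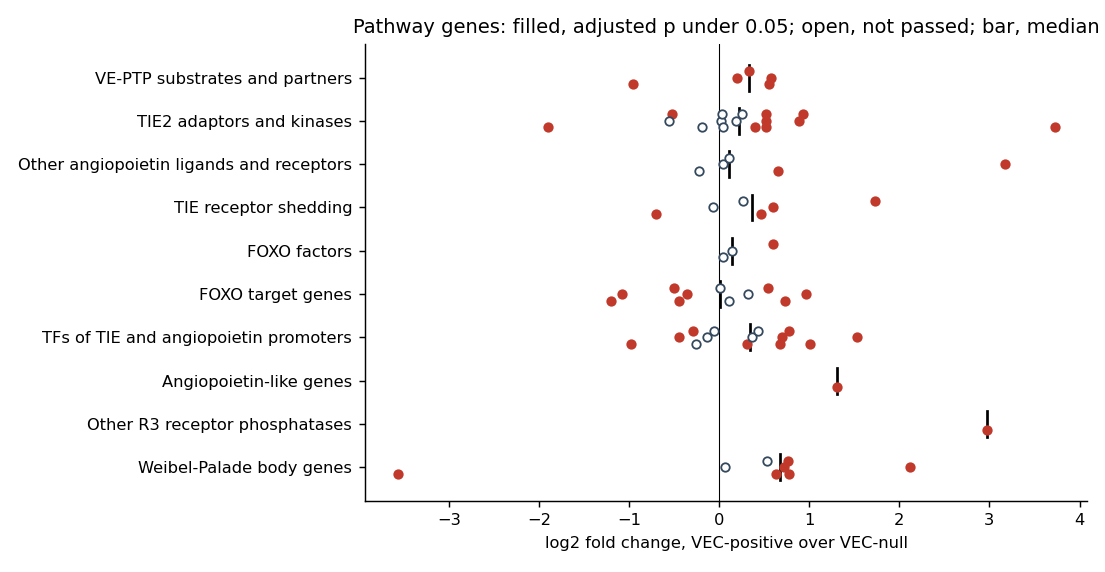
Log2 fold changes of VEC-positive over VEC-null for every tested gene of the 10 lists, one row per list, filled where the adjusted p was under 0.05 and open where it was not, with a bar at the list's median. Most lists hold genes on both sides of 0, from *Sytl4* at -3.57 to *Dok2* at 3.72.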

How the data were processed

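Total RNA of 6 libraries was sequenced with a stranded kit. Per the labels, the submitters' processing notes name Trim Galore, TopHat2 2.1.1, DESeq2 1.14 and mm10; the sources used here do not give the counting program or annotation. The signal values deposited by the authors are normalized counts, each library's reads per gene over its size factor; whole reads came back for 100% of them within 0.01 of a read. GENCODE M21 gave coordinates, exon lengths and symbols for 23908 genes.

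The 14032 genes with at least 10 normalized counts in at least 3 libraries were fitted in limma 3.58.1 (R 4.3.3) with a mean-variance trend, a pseudocount of 1, two-sided, with Benjamini-Hochberg adjustment and a threshold of 0.05. Ratios within a library were compared by exact permutation. Alternatives were other pseudocounts, filters, scalings and models, recovered reads in edgeR 4.0.16 and in DESeq2 1.42.0, a replicate block and leaving out each library. Counting intervals (95%) and limits for 0 reads (3 reads) cover counting error only, since duplicates count as reads.

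The members and gene lists were chosen with earlier results of these data known. Named are the members, *Cdh5*, genes overlapping a member, the 3 nearest genes of each member and, of each list, up to 4 that passed, with a mean of at least 50 and the largest changes, and up to 2 that did not, with the highest mean. Not every gene drawn is reported here, and *Calcrl* and the cell type markers are named outside this rule.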

Additional observations from a re-analysis of the deposited data

How the results depend on the processing

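*Ptprb*, *Tek* and *Tie1* stayed higher and past the threshold under all 19 alternatives, with log2 fold changes of 1.57 to 1.93, 0.30 to 0.65 and 0.22 to 0.55. *Angpt1*, which lies below the stricter filter, could be fitted under 18 and passed in all, with 2.05 to 4.77. It had entered the main test through its VEC-positive values, and these fits use the same few reads, so this is no further evidence. *Angpt2* passed under none of its 18. It changed sign with voom (0.042) and ranged from -0.35 to 0.29 when 1 library was left out. Over all genes, scaling to equal totals gave 1566 higher and 4960 lower, with a median log2 fold change of -0.32. Every value and call given with equal totals includes this shift of all genes. Leaving out 1 library gave 2111 to 3800 higher and 1585 to 3359 lower, the upper ends without VEC-null 3. The cause was not tested.

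Replicate numbers showed no pairing of the libraries, as deviations of same-numbered libraries correlated at 0.076, -0.333 and -0.295. The highest values were 0.390, for VEC-positive 2 with VEC-null 3, and 0.248, for VEC-positive 3 with VEC-null 2. With 3 libraries per group, these correlations cannot exclude batches shared between the groups. With the replicate number as a block 2400 genes were higher and 1744 lower, and the adjusted p was 0.000187 for *Ptprb*, 0.00502 for *Tek*, 0.00596 for *Tie1*, 0.0148 for *Angpt1* and 0.875 for *Angpt2*.

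Of the other genes, signs changed for *Jup* with equal totals (-0.12) and for genes that had not passed. *Itgb1* was at -0.27 with equal totals, -0.10 with equal totals without mitochondrial transcripts and -0.025 with upper quartile factors, and leaving out 1 library gave -0.020 to 0.13. With equal totals *Adam17* was at -0.053 and *Foxo3* at -0.17, and without mitochondrial transcripts *Foxo3* was at -0.0080. Few reads stand behind the ligands: 84 in each group for *Angpt2*, and 62 and 2 for *Angpt1*.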
